A study of Mus musculus with 24 samples.

Results

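The transcriptional effect of blocking the tRNA-derived fragment 5'tRF Glu(CTC) was examined in dispersed mouse islet cells under lipotoxic conditions, by setting αGlu PA (6 libraries) against Ctr PA (6 libraries). These 12 libraries were taken by their labels out of the 24 of the experiment, and the comparison is described across all genes. Cells of both groups came from wild type mice and were kept with 0.5 mM palmitate (PA) bound to bovine serum albumin (BSA). Before that, αGlu PA cells received 50 pmol of an antisense oligonucleotide (ASO) against the fragment by lipofection, and Ctr PA cells received the same amount of a control ASO. The other 12 libraries, Ctr BSA and αGlu BSA with 6 each, had the same ASOs and a 0.75% BSA vehicle, and appear here where the effect without palmitate is set beside the effect with it. Per the study's methods, mice were of the C57BL/6NRj strain, of both sexes and 12 to 14 weeks old, and the exposure to PA or BSA lasted 48 h. The labels divide every group into 3 libraries of batch 1 (up to library S12) and 3 of batch 2 (from S13), without saying what a batch was. Libraries are named here by their number on the label. The ASO was given to a mixture of islet cell types and not to beta-cells alone, which limits any reading of a gene to a cell type.

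A tRNA-derived fragment of this kind is the 5' part of a mature tRNA, released by nucleases such as angiogenin when cells are stressed, and it can bind proteins or pair with other RNAs. Palmitate is a saturated fatty acid that, at high levels, is toxic to insulin-secreting beta-cells. Besides the endocrine alpha-, beta-, delta- and PP cells, islets hold resident macrophages, endothelial cells, pericytes and fibroblasts, and a sheath of Schwann cells and other glia that accompanies the autonomic nerves.

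The oligonucleotide and its stated target are shown because they define the treatment. Both are written 5' to 3' as DNA letters, and the capitals in the target mark bases 2 to 8, the stretch that corresponds to a microRNA seed.
αGlu ASO: taaccactagaccaccaggg
target: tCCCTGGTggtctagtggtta
The ASO has 20 bases and the target 21. The reverse complement of the ASO was found in the target without a mismatch, from base 2 to base 21, so that base 1 of the target lies outside the duplex. The study describes the fragment in islet cells as longer than this target, so that its bases beyond the target lie outside the duplex too. The sequence of the control ASO was not used here.

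Few genes differed, and those that did were mostly lower with the αGlu ASO and of low abundance. Of 41549 genes in the table, 15916 had enough counts to be tested. A gene was called when its fold change exceeded 2 (a log2 fold change beyond 1 or -1) with an unadjusted p below 0.05 in edgeR's quasi-likelihood test with batch as a covariate. By this rule 150 genes were called, 0.942% of those tested. Of these, 123 were lowered (0.773%) and 27 were raised (0.17%). None passed a Benjamini-Hochberg adjusted p of 0.05 with edgeR (0% of those tested), with 538 at an unadjusted p below 0.05, and limma-voom also gave 0. DESeq2 gave 30 such genes, 29 of them lowered. The smallest adjusted p with edgeR was 0.0593. The median log2 fold change over all genes tested was -0.00438. Every αGlu PA library was below every Ctr PA library for 26 genes (0.163% of those tested), and above for 10 genes (0.0628%).

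For most genes the data bounded the effect. The 95% interval of the fold change lay wholly within 2-fold for 13679 genes, 85.9% of those tested, and within 1.5-fold for 11703 genes, 73.5%. Abundance set this bound. Among genes above the median of 464.5 counts (mean over the 12 PA libraries) 99.7% had an interval within 2-fold, against 72.2% of those below it. The lowered genes had a median of 23.9 counts and the raised genes of 10.2, so that their fold changes carried wide errors. The plot of fold change against abundance shows both the narrow spread of abundant genes and the wide one of genes with few counts.

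**Figure D1:**
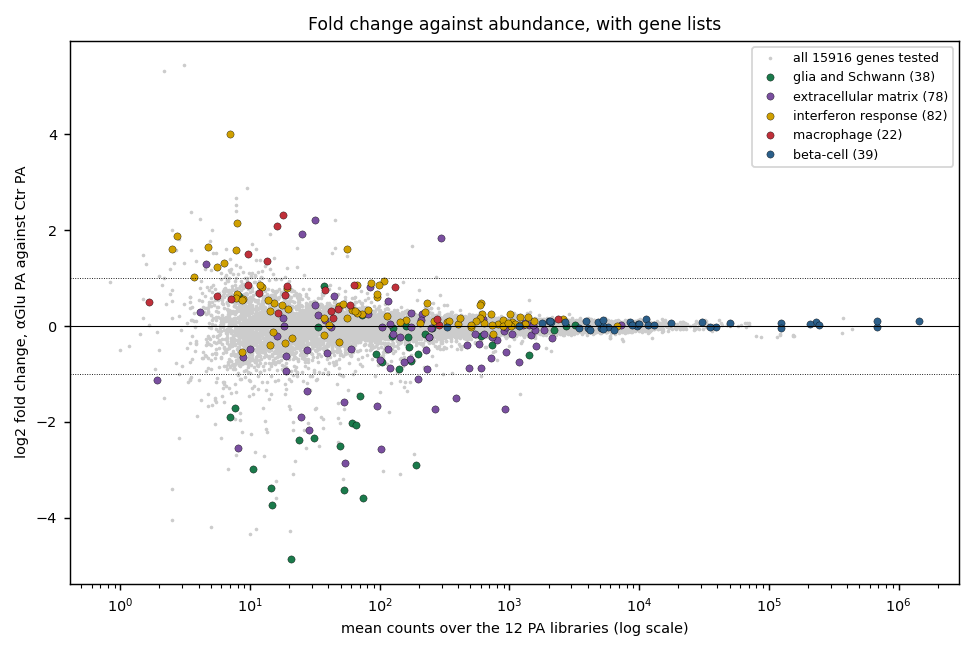
Log2 fold change (αGlu PA against Ctr PA, y axis) of each of the 15916 genes tested, against its mean counts over the 12 PA libraries (x axis, log scale), with dotted lines at a log2 fold change of 1 and -1. Coloured points are genes of 5 lists, and the 39 beta-cell genes stay near 0 while genes of the glia list reach -4.86.

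Totals ran from 24491448 to 29769223 counts in Ctr PA and from 25009035 to 31049750 in αGlu PA. Insulin transcripts took 6.23% to 9.87% of the counts of these 12 libraries, and Ins1 and Ins2 were higher in batch 2 in both groups. Mitochondrially encoded genes took 8.83% of Ctr PA library S23, against 4.18% to 5.56% of the other 11. The Ctr BSA library S1 had 15.9% of its counts on rRNA genes, with 3.47% as the highest of the other 23. It belongs to neither PA group, but takes part in the filter, the scaling, the batch term and the estimate of the spread of the shared fit. Without S1, 16041 genes were tested and 158 called. Without S23, 141 genes were called in αGlu PA against Ctr PA, 115 of them lowered. The labels call the samples islet cells, and the defining markers of beta-, alpha-, delta- and PP cells (Ins1, Ins2, Gcg, Sst, Ppy) were abundant in every library, from 170.8 CPM upward (TMM-scaled counts relative to library size).

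The gene with the smallest p was Pde2a (chromosome 7, 101421691 to 101512827 of GRCm38, plus strand), a phosphodiesterase that hydrolyses cAMP and cGMP. Its CPM was 1.45 at the lowest, 5.53 at the median and 14.4 at the highest in Ctr PA, and 0, 0.724 and 2.32 in αGlu PA. The groups overlapped only through the Ctr PA library S15, at 1.45 CPM. Pde2a was lowered, with a log2 fold change of -3.02 ± 0.51 (SE, 6 against 6 libraries, adjusted p = 0.0593), and with -2.76 in batch 1 and -3.45 in batch 2. In BSA its log2 fold change was -0.61 ± 0.43 (unadjusted p = 0.172 with edgeR), and the difference between both effects, -2.41 ± 0.66, had an unadjusted p of 0.00125 and an adjusted p of 0.999 with edgeR. The BSA value differed between the batches. In batch 2, αGlu BSA stood at 1.62, 1.83 and 2.04 CPM, below Ctr BSA at 5.17, 5.7 and 6.65. In batch 1, αGlu BSA stood at 15.6, 6.82 and 18.8 CPM and Ctr BSA at 2.71 (S1), 17.7 and 14.4. Over the omission of each library in turn the log2 fold change in PA stayed between -3.30 and -2.83.

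Itga1 (chromosome 13, 114953096 to 115101964, minus strand), which encodes the collagen-binding integrin α1, had the next smallest p. Its CPM ran from 4.94 over a median of 8.55 to 13.2 in Ctr PA and from 2.55 over 3.85 to 4.98 in αGlu PA. Only the αGlu PA library S4, at 4.98, reached the range of Ctr PA. The log2 fold change was -1.16 ± 0.21 (adjusted p = 0.0688). The 3 Ctr PA libraries of batch 2 stood at 11.04, 13.2 and 12.7 CPM and those of batch 1 at 6.06, 5.14 and 4.94, and the fold change was -1.64 in batch 2 against -0.62 in batch 1.

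The rule for naming genes took 12 lowered genes, of which 11 are described. Besides Pde2a and Itga1 these were Hand2, Edil3, Lims2, Olfml2a, Megf6, Grik3, Fgf2, Col12a1 and Galnt17. Edil3, an extracellular integrin ligand, ran from 1.99 over 5.09 to 13.8 CPM in Ctr PA and from 0.347 over 0.904 to 1.69 in αGlu PA, with no overlap, and its log2 fold change was -2.57 ± 0.54 (adjusted p = 0.252). Olfml2a, an extracellular protein with an olfactomedin-like domain, was likewise separated, at 3.91 to 28.4 CPM (median 9.78) in Ctr PA and 0.735 to 3.22 (median 1.27) in αGlu PA, a change of -2.67 ± 0.60 (adjusted p = 0.299). Fgf2, the basic fibroblast growth factor, fell from a median of 2.996 CPM (0.797 to 3.65) to 0.850 (0.630 to 1.47), a change of -1.61 ± 0.37 (adjusted p = 0.299). For Fgf2 the Ctr PA library S11 alone lay within the range of αGlu PA. Grik3, a kainate-type glutamate receptor subunit, was at 0 in 3 of the 6 αGlu PA libraries and between 0.213 and 2.79 CPM in Ctr PA. Lims2, an adaptor of integrin adhesions, had the smallest of the 11 changes, -1.04 ± 0.22 (adjusted p = 0.252), yet its groups did not overlap (1.91 to 3.61 against 0.887 to 1.66 CPM). Without any 1 of the libraries S16, S19, S23 or S24 the change of Lims2 was no longer beyond -1, with -0.88 without S19 as the smallest change.

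**Figure D2:**
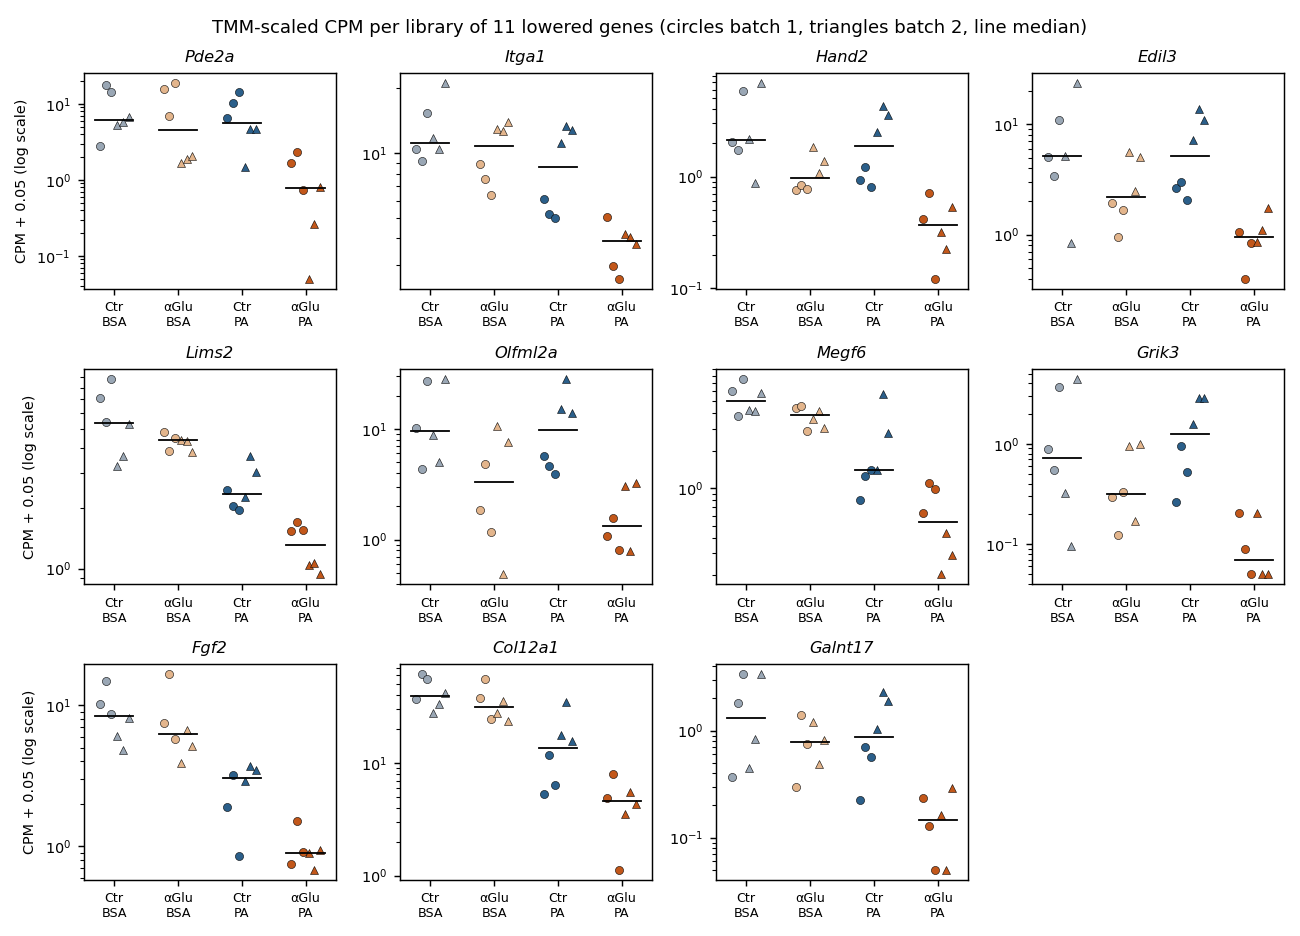
TMM-scaled CPM plus 0.05 (y axis, log scale) of the 11 lowered genes in each library of the 4 groups (x axis), with circles for batch 1, triangles for batch 2 and a line at the group median. In αGlu PA all 6 libraries of Hand2, Edil3, Lims2, Olfml2a and Grik3 lie below all 6 of Ctr PA.

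Genes of glia and Schwann cells formed the largest group of lowered genes among the lists. Of 48 listed genes 38 were tested, 33 of these had a negative fold change, and 15 were lowered and 0 raised, beside 0.773% lowered over all genes tested. Genes of this list, among them Foxd3, S100b, Gap43, Gfap and Ngfr, were also named by the study from these samples. The counts are therefore a description. The median log2 fold change of the list was -0.60, against -0.00438 for all genes. Myelin genes did not take part. None of the 7 tested was called, and their median was -0.02, with Pmp22 lowest at -0.59 ± 0.23 (adjusted p = 0.993). The called members were transcription factors of the neural crest and glial lineage (4 of 5 tested), fibre, growth and lipid proteins (4 of 7), adhesion, matrix and channel proteins (5 of 10) and receptors or ligands (2 of 9).

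Among the transcription factors, Sox10, required for glial identity, had a median of 3.04 CPM in Ctr PA and 0.204 in αGlu PA and a log2 fold change of -3.43 ± 0.87 (adjusted p = 0.354). Foxd3, a neural crest factor, ran from 0.390 to 2.10 CPM in Ctr PA (median 0.824) and no more than 0.214 in αGlu PA (median 0.0202), without overlap, and changed by -3.73 ± 0.96 (adjusted p = 0.354). Sox2 changed by -3.39 ± 0.94 (adjusted p = 0.443) and Tfap2a by -1.70 ± 0.74 (adjusted p = 0.993). All 4 had larger changes in batch 2 than in batch 1, though no gene passed an adjusted p of 0.05 for a difference between the batches.

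The structural and adhesion proteins of glia that were called had large changes. Cdh19, a cadherin of Schwann cell precursors, stood at 0.851, 1.86 and 2.23 CPM in the Ctr PA libraries of batch 1 and at 5.01, 11.8 and 9.34 in those of batch 2, and at 0 to 0.846 in αGlu PA. The groups of Cdh19 met without overlapping, and its log2 fold change was -3.59 ± 0.85 (adjusted p = 0.299). Gap43, a growth cone protein, had a median of 3.86 CPM (1.595 to 6.75) in Ctr PA and of 0.962 (0.359 to 1.21) in αGlu PA, without overlap, a change of -2.03 ± 0.49 (adjusted p = 0.299). Gfap, the glial intermediate filament, was at 0 in 4 of 6 αGlu PA libraries, while Ctr PA ran from 0.0354 to 3.97 CPM, so that the Ctr PA libraries S3 and S7 (0.146) lay within the αGlu PA range, which ended at 0.161. Its log2 fold change of -4.86 ± 1.18 (adjusted p = 0.304) was the lowest of all genes tested. S100b, a calcium-binding protein of glia, was separated in all libraries (0.693 to 3.06 against 0.143 to 0.458 CPM) with -2.38 ± 0.65 (adjusted p = 0.443).

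Summed over the 5 defining glial markers (among them Sox10, S100b, Foxd3 and Cdh19), Ctr PA ran from 9.07 over a median of 15.8 to 35.8 CPM and αGlu PA from 4.86 over 6.75 to 7.496, without overlap. S100b and Foxd3 were also named by the study from these samples, so this separation is a description. Without palmitate the same sum was 7.22 to 49.6 in Ctr (median 14.3), overlapping the 5.16 to 15.1 of αGlu (median 6.47). In bulk samples such as these, fewer cells of a type and less RNA per cell cannot be told apart. No other defining set was separated between the PA groups. Endothelial markers (Pecam1, Cdh5, Kdr) had medians of 11.2 and 8.49 CPM in Ctr PA and αGlu PA, fibroblast markers (Col1a1, Pdgfra, Pdgfrb) 11.7 and 7.24, acinar markers (Prss2, Cpa1, Ctrb1) 1169 and 1062, ductal markers (Krt19, Sox9, Cftr) 52.7 and 54.4, and macrophage markers (Csf1r, Adgre1, Ptprc) 2.28 and 3.71, all with overlapping ranges. The acinar and ductal medians lie between 2 separate batches. Over both PA groups the acinar sum ran from 1830 to 5389 CPM in batch 1 and from 145.6 to 377.3 in batch 2. The ductal sum ran from 87.75 to 207.1 in batch 1 and from 6.26 to 17.7 in batch 2. The αGlu PA library S8 was the highest of its group in the endothelial, fibroblast, acinar, ductal and macrophage sums and the lowest in the glial sum.

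Among genes of autonomic neurons, the called ones were transcription factors. Hand2, a factor of noradrenergic and enteric neurons and of mesenchyme, ran from 0.757 over 1.82 to 4.21 CPM in Ctr PA and from 0.0717 over 0.317 to 0.656 in αGlu PA, a change of -2.51 ± 0.52 (adjusted p = 0.252) with no overlap. Hand2 was also named by the study from these samples, so the count that follows is a description. Of 4 tested transcription factors in the 28-gene list, 2 were lowered, Hand2 among them, beside 0.773% lowered over all genes tested. Of its 7 structural and 5 transmitter genes tested, none was called, with medians near 0 (0.00302 and 0.0046), and Snap25, a synaptic protein that beta-cells also use for exocytosis, had medians of 229.1 CPM in Ctr PA and 227.9 in αGlu PA and a log2 fold change of -0.08 ± 0.06.

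Of 16 neurotrophic genes tested, 3 were lowered and none was raised, beside 0.773% lowered and 0.17% raised over all genes tested. Gdnf and Ngfr among them were also named by the study from these samples, so this count is a description. Ngfr is also counted in the glia list. Gdnf (chromosome 15, 7810846 to 7837575, plus strand), a survival factor for enteric and sympathetic neurons, ran from 0.992 over 1.39 to 3.41 CPM in Ctr PA and from 0.0403 over 0.204 to 0.496 in αGlu PA, a change of -2.55 ± 0.70 (adjusted p = 0.443). Its groups did not overlap. Gfra2, a coreceptor of the same ligand family, changed by -1.91 ± 0.89 (adjusted p = 0.993), whereas Gfra1 (-0.42 ± 0.25), Gfra3 (-0.03 ± 0.12) and the signalling receptor Ret (0.09 ± 0.06) were not called. Ngfr, the p75 neurotrophin receptor, ran from 2.30 over 11.05 to 29.7 CPM in Ctr PA and from 0.251 over 1.06 to 3.39 in αGlu PA, a change of -2.90 ± 0.80 (adjusted p = 0.443), with S4 of αGlu PA above S3 of Ctr PA. The Trk receptors Ntrk2 (0.01 ± 0.06) and Ntrk3 (-0.08 ± 0.28) and the ligand Bdnf (0.24 ± 0.31) were not called.

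A further list holds neural and matrix genes that the study names for this oligonucleotide. Since they were picked on these samples, their values are a description and no independent evidence. The same holds where these genes are counted in the other lists. In αGlu PA against Ctr PA all 13 genes of the list were lowered, with log2 fold changes from -4.86 (Gfap) to -2.02 (Cd109), and 5 of them were separated in all libraries. Over all genes tested 0.773% were lowered and 0.163% had every αGlu PA library below every Ctr PA library. Besides those above they are Cadm3, an adhesion molecule of axons and glia (-2.33 ± 0.74), Gpm6b, a membrane proteolipid (-2.07 ± 0.56), Mrgprf, an orphan receptor (-3.60 ± 0.92), Cd109, a membrane-anchored protein (-2.02 ± 0.55), Mmp17, a membrane-type metalloproteinase (-2.18 ± 0.55), and Chst3, a chondroitin sulfotransferase (-2.54 ± 0.75), with adjusted p from 0.354 to 0.757. Mmp17 and Cadm3 had similar changes in both batches (-2.27 and -2.10 for Mmp17, -2.12 and -2.48 for Cadm3), whereas Gpm6b (-0.54 and -3.22) and Cd109 (-0.63 and -2.97) had most of theirs in batch 2.

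Extracellular matrix genes were lower as well, in batch 2 above all. Of 78 tested, 55 had a negative fold change, 11 were lowered and 1 was raised, with a median of -0.22. Over all 15916 genes tested 8211 had a negative fold change, 0.773% were lowered and 0.17% raised. The lowered genes spread over the classes, with 2 of 8 fibrillar collagens, 2 of 17 basement membrane genes, 2 of 9 other collagens, 2 of 24 glycoproteins and proteoglycans and 3 of 20 remodelling enzymes. Col12a1, a fibril-associated collagen, ran from 5.32 over 13.6 to 34.6 CPM in Ctr PA and from 1.08 over 4.60 to 7.95 in αGlu PA, a change of -1.73 ± 0.40 (adjusted p = 0.299). Nid1, a basement membrane linker, had 19.8, 32.9 and 36.1 CPM in Ctr PA and 4.12, 4.24 and 6.05 in αGlu PA in batch 2, but 10.8, 18.1 and 8.01 against 11.7, 12.97 and 4.63 in batch 1. Its change was -1.51 ± 0.37 (adjusted p = 0.308), -2.62 in batch 2 and -0.33 in batch 1, and the difference between the batches had an unadjusted p of 0.000839 with edgeR. The median of the list was -0.88 in batch 2 and 0.03 in batch 1, so that its direction rests on batch 2. Without the αGlu PA library S8, which had the most matrix transcripts of its group, 20 genes of the list were called instead of 12 and the median was -0.51, while without the Ctr PA library S19 the median was -0.09. The raised member was Tgfbi, a secreted adhesion protein, at 2.22 ± 1.03 (adjusted p = 0.993). Its fold change was 3.83 in batch 1 and -1.76 in batch 2.

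The sizes differed between the batches for the lowered genes as a whole. Of the 123, 122 were lower in batch 1 and 123 in batch 2, with medians of -1.06 and -2.48. Their choice used both batches, so that the count of directions is a description. When genes were instead called in 1 batch alone and read in the other, which was not used, the directions in the other batch could be read without that selection. Of 41 genes lowered in batch 1 alone, 36 were lower in batch 2, with a median there of -2.13. Of 218 lowered in batch 2 alone, 161 were lower in batch 1, with a median of -0.33. Of 41 raised in batch 1 alone, 18 were higher in batch 2 (median -0.15), and of 35 raised in batch 2 alone, 24 were higher in batch 1 (median 0.24). Over all 15916 genes tested 8148 were lower and 7767 higher in batch 1, and 8056 were lower and 7857 higher in batch 2. The genes of a count were read in the same libraries, so they are not independent observations. The contrast between batches gave 359 genes at an unadjusted p below 0.05 (2.26% of those tested) and 0 past an adjusted p of 0.05 with edgeR.

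**Figure D3:**
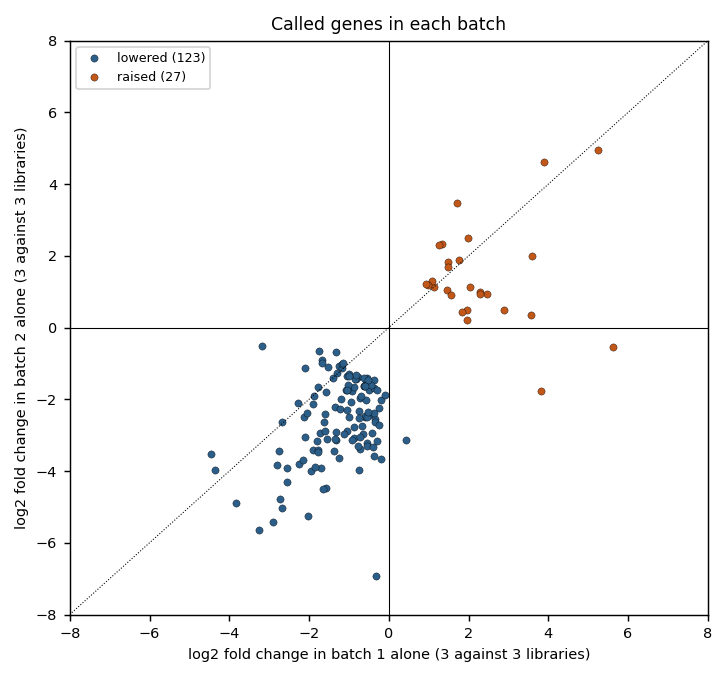
Log2 fold change of the 150 called genes in batch 1 alone (x axis) and in batch 2 alone (y axis), each from 3 αGlu PA against 3 Ctr PA libraries, with a dotted line of equal change. Lowered genes (blue) lie mostly below that line, with medians of -1.06 in batch 1 and -2.48 in batch 2.

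Raised genes were fewer and less abundant. The naming rule took 10, namely Oas2, Gm17092, Pagr1a, Sapcd1, Gm2694, C1qc, C1qb, Fcgr3, Adamtsl2 and Gm43672, of which only Gm43672 had groups that did not overlap. Oas2 (chromosome 5, 120730333 to 120749853, minus strand), a double-stranded RNA-activated 2-5A synthetase of the interferon response, ran from 0.279 over 0.952 to 1.31 CPM in Ctr PA and from 1.17 over 2.32 to 6.595 in αGlu PA. Only the highest Ctr PA library, S3, exceeded the lowest αGlu PA libraries, and the log2 fold change was 1.61 ± 0.50 (adjusted p = 0.699). Pagr1a, a component of histone methyltransferase complexes, varied widely in αGlu PA, from 0.215 over 1.56 to 8.49 CPM, against 0.159 over 0.496 to 1.39 in Ctr PA, and changed by 2.22 ± 0.76 (adjusted p = 0.929). Without library S8 of αGlu PA, at 8.49, its change was 1.46 and the call was lost. The non-coding Gm43672 and Gm2694 (lincRNA) and Gm17092 (antisense) had medians below 0.8 CPM in both groups and changed by 1.03 ± 0.46, 1.26 ± 0.49 and 1.08 ± 0.35 (adjusted p from 0.764 to 0.993). Whether the counting used the strand of the reads is not given in the sources used here, so reads of Gm17092 and of the gene opposite it may not be separated. The number of raised genes was unsteady. It was 52 without library S3 and 52 without S7, 47 without S12, 44 without S15, 44 without S16, 43 without S19 and 42 without S20, against 27 with all libraries.

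Interferon response genes were slightly higher with the αGlu ASO, in batch 1 above all. All 82 genes of the list found in the table were tested, and 71 had a positive fold change, with 5 raised and none lowered. Over all 15916 genes tested 7705 had a positive fold change and 0.17% were raised. The median was 0.24, with 0.41 in batch 1 and 0.05 in batch 2. The 2-5A synthetase group moved most, with 8 of 8 positive and a median of 0.42, while the sensors of foreign RNA and DNA had a median of 0.03. Summed over the list, Ctr PA ran from 1157 over 1212 to 1302 CPM and αGlu PA from 1188 over 1260 to 1618, with the highest value in library S4. Without S4, 3 genes of the list were called and the median was 0.11, without S8 the median was 0.16, whereas 11 were called without S12 and 8 without S19. Irf7, a transcription factor that amplifies the response, had a log2 fold change of 0.95 ± 0.27 (adjusted p = 0.504) and was not past 2-fold. Apol9b changed by 4.02 ± 1.00 (adjusted p = 0.354) on few counts, being at 0 in 4 of 6 Ctr PA libraries and at 1.37 CPM at most in αGlu PA. Apol9b and Apol9a (2.15 ± 0.87, adjusted p = 0.993) are near-identical neighbours, between which reads may have been divided. MHC class I genes, which interferon also induces, were positive for 16 of 18 genes with a median of 0.13, and none was called.

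The promoters of this list were searched for the letters GAAA, any 2 bases and GAAA again, the core of the interferon-stimulated response element, on both strands of the 300 bases from 250 before to 50 after the annotated start (RefSeq, GRCm38.p6). Of the 61 list genes with a promoter in the table, 32 held the motif (52.5%), against 3.68% of the 12087 tested genes with a promoter. The 32 genes with it had a median log2 fold change of 0.31 in αGlu PA against Ctr PA, with 31 positive, and the 29 without it 0.08, with 22 positive. Among called genes with a promoter in the table it was present in 6 of 18 raised and 4 of 79 lowered genes. The promoters of Oas3, another 2-5A synthetase (1.66 ± 0.60, adjusted p = 0.993), and of Apol9b are shown as examples of raised genes, with the motif in capitals and 2 overlapping matches on the opposite strand in Apol9b. The Oas3 window is chr5:120777610-120777909 (minus strand) and the Apol9b window chr15:77728822-77729121 (plus strand).
Oas3: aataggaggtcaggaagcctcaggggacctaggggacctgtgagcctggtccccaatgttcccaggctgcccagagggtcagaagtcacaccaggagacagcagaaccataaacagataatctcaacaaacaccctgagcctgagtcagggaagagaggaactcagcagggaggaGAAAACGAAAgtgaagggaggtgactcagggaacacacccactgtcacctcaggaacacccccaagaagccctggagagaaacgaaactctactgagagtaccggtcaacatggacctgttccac
Apol9b: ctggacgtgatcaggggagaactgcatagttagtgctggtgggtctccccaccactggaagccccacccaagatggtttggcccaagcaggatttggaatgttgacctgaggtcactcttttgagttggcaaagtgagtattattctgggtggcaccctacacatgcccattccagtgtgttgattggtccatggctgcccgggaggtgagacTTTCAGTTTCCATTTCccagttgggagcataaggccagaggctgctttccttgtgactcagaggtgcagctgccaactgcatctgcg

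Macrophage genes were higher in αGlu PA than in Ctr PA throughout the list but for the most part through 1 library. All 22 genes tested had a positive fold change, with a median of 0.63, and C1qc and C1qb were raised, beside 0.17% raised over all genes tested. The 3 defining markers (Csf1r, Adgre1, Ptprc) were not called, and the part of macrophage number in these values was not tested. C1qc, a chain of the complement component C1q made by resident macrophages, was at 0 to 0.993 CPM in Ctr PA (median 0.18) and at 0.108 to 3.94 in αGlu PA (median 0.597), a change of 2.31 ± 0.92 (adjusted p = 0.993). C1qb had 0.0716 to 0.516 CPM (median 0.212) against 0 to 3.67 (median 0.452), a change of 2.09 ± 0.87 (adjusted p = 0.993). Both had their highest value in library S8 of αGlu PA. The other 5 αGlu PA libraries lay within the range of Ctr PA for C1qc, whereas for C1qb S24 (0.766) and S4 (0.519) also exceeded every Ctr PA library. Without S8 the changes were 0.75 and 0.47 and neither was called. Fcgr3, an Fc receptor, also lost its call without S8 (1.38 ± 0.60 with it, 0.69 without). The median of the list was 1.03 in batch 1 and 0.09 in batch 2, and 0.15 without S8. The chemokine Cxcl14 was raised by the same comparison (2.67 ± 1.16, adjusted p = 0.993) through library S4, at 1.89 CPM, and it had a log2 fold change of 5.63 in batch 1 and -0.55 in batch 2.

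Since the BSA groups share no library with the PA groups, the effect of the αGlu ASO without palmitate could be set beside the effect with it. There, 125 genes were called (0.785% of those tested). Of the 123 genes lowered in PA, 107 also had a negative fold change in αGlu BSA, with a median of -0.74 beside -1.73 in PA, and 43 were called lower in BSA. Of the 27 genes raised in PA, 12 were higher in BSA, with a median of -0.13, and 5 were called higher. Over all 15916 genes tested 7890 had a negative and 8026 a positive fold change in BSA. Per the study's methods all groups of a replicate came from the same animal, so both effects are not independent. The difference between both effects had an unadjusted p below 0.05 for 332 genes (2.09% of those tested) and an adjusted p below 0.05 for none with edgeR.

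The gene groups differed in how their BSA values compared. Glial genes were lower in both media. In BSA 37 of 38 had a negative fold change, with a median of -0.56, and no gene of the list had an unadjusted p below 0.05 for the difference. Gdnf (-2.69 ± 0.69 in BSA, difference 0.14, unadjusted p = 0.8885 with edgeR), S100b (-2.57 ± 0.63, difference 0.19, unadjusted p = 0.838) and Ngfr (-2.57 ± 0.75, difference -0.33, unadjusted p = 0.764) had BSA values near those in PA. Ctr BSA was uneven for glial genes, with summed defining glial markers of 49.6 CPM in S21 and 39.85 in S9, beside a group median of 14.3. For Ngfr, batch 2 held 6.95, 0.735 and 43.0 CPM in Ctr BSA and 10.3, 0.993 and 7.96 in αGlu BSA. Batch 1 held 9.085, 6.27 and 33.4 in Ctr BSA and 0.811, 0.938 and 1.08 in αGlu BSA. Interferon genes were likewise higher in both media, with 71 of 82 positive in BSA and a median of 0.42, as for Oas2 (2.02 ± 0.48 in BSA, difference -0.41, unadjusted p = 0.555 with edgeR).

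A second set of lowered genes had smaller values in BSA with both batches fitted together. It included Pde2a, given above, and Fgf2 (-0.22 ± 0.31 in BSA, difference -1.39, unadjusted p = 0.00794 with edgeR), Itga1 (-0.38 ± 0.20, difference -0.78, unadjusted p = 0.0112), Col12a1 (-0.34 ± 0.35, difference -1.39, unadjusted p = 0.0148), Megf6 (-0.48 ± 0.37, difference -1.47, unadjusted p = 0.0177), Lims2 (-0.35 ± 0.20, difference -0.69, unadjusted p = 0.0304) and Galnt17 (-1.13 ± 0.60, difference -2.09, unadjusted p = 0.0388), of which none passed an adjusted p of 0.05. These genes were taken for a large change in PA, which enters the difference, so the size of the difference is a description. Matrix genes had a median of -0.02 in BSA, and 5 of 78 had an unadjusted p below 0.05 for the difference.

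Macrophage genes went in opposite directions. Without palmitate 21 of 22 had a negative fold change (median -0.85) while all 22 were higher in αGlu PA, and 11 had an unadjusted p below 0.05 for the difference, such as C1qb (3.20, unadjusted p = 0.00913 with edgeR) and Ptprc, the leukocyte marker CD45 (2.23, unadjusted p = 0.0177). This contrast depended on 2 libraries. Without the Ctr BSA library S21, whose summed macrophage genes stood at 487.5 CPM against a group median of 179.9, 1 gene had such a difference, and without the αGlu PA library S8, 2 genes had one.

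**Figure D4:**
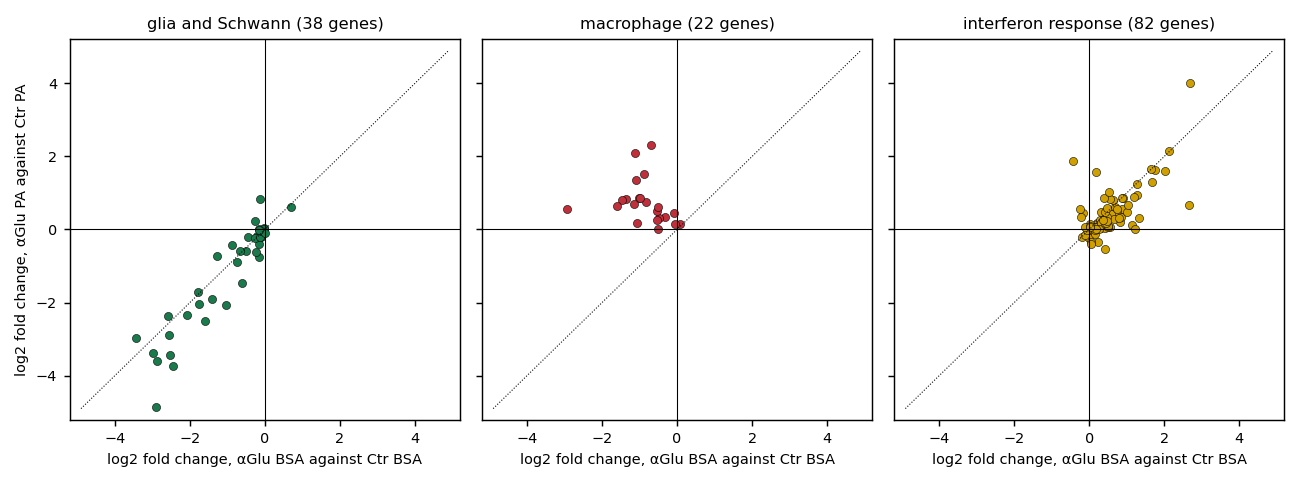
Log2 fold change of αGlu against Ctr in PA (y axis) and in BSA (x axis) for the tested genes of the glia (38), macrophage (22) and interferon (82) lists, with a dotted line of equal effect. Glial genes lie at the lower left, interferon genes mostly at the upper right, and macrophage genes at the upper left, with medians of 0.63 in PA and -0.85 in BSA.

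Endocrine genes were measured precisely and none was called. Of 39 beta-cell genes all had a 95% interval within 1.5-fold, with log2 fold changes from -0.08 to 0.14. Ins2 ran from 41700 over 49285 to 65714 CPM in Ctr PA and from 41227 over 55283 to 68318 in αGlu PA, a change of 0.10 ± 0.10 (interval -0.10 to 0.30), and Ins1 one of 0.11 ± 0.09 (-0.08 to 0.29). In batch 1 both insulin genes had a change of 0.01 and in batch 2 of 0.20 (Ins1) and 0.19 (Ins2). The beta-cell factors Mafa (0.14 ± 0.09, interval -0.03 to 0.32), Pdx1 (0.12 ± 0.07, -0.02 to 0.26) and Neurod1 (-0.06 ± 0.07, -0.21 to 0.08) and the granule protein Vamp8 (0.01 ± 0.07, -0.14 to 0.16) had intervals on both sides of 0. Gcg of alpha-cells (-0.06 ± 0.15), Sst of delta-cells (0.10 ± 0.16) and Ppy of PP cells (0.14 ± 0.13) did likewise, and of 15 genes of those cells 14 had an interval within 2-fold.

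Genes of the responses that palmitate is known to engage were bounded to differing degrees, and none was called in the lists that follow. Of 33 listed ER stress genes, 32 were found in the table, and all 32 had an interval within 1.5-fold. The gene not found was 1 of 12 listed for the PERK-ATF4-CHOP arm. No value is given here for Chop, the ER stress marker that the study measured. Xbp1, the spliced transcription factor of the IRE1 arm, was at -0.08 ± 0.05 (interval -0.18 to 0.02). Atf5, a target of the PERK arm, was at 0.10 ± 0.08 (-0.05 to 0.26). Of 20 apoptosis genes all lay within 2-fold and 16 within 1.5-fold, among them the anti-apoptotic Bcl2l1 (-0.05 ± 0.08, -0.20 to 0.11), whereas Bcl2 was less well bounded (-0.22 ± 0.20, -0.64 to 0.20). Of 41 genes of fatty-acid oxidation and PPAR targets, 40 lay within 2-fold. Cpt1a, the carnitine palmitoyltransferase that fatty acids induce, had a median of 161.7 CPM in Ctr PA and 161.9 in αGlu PA, beside 35.1 and 33.6 in the corresponding BSA groups, with a log2 fold change of 0.03 ± 0.08 (-0.13 to 0.18). Of 27 antioxidant genes 26 lay within 2-fold. The list of nucleases, Argonaute proteins and tRNA enzymes that make or bind tRNA fragments had 21 of 21 genes within 1.5-fold, such as Ago1 (0.07 ± 0.05) and the tRNA ligase Rtcb (0.08 ± 0.06).

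**Figure D5:**
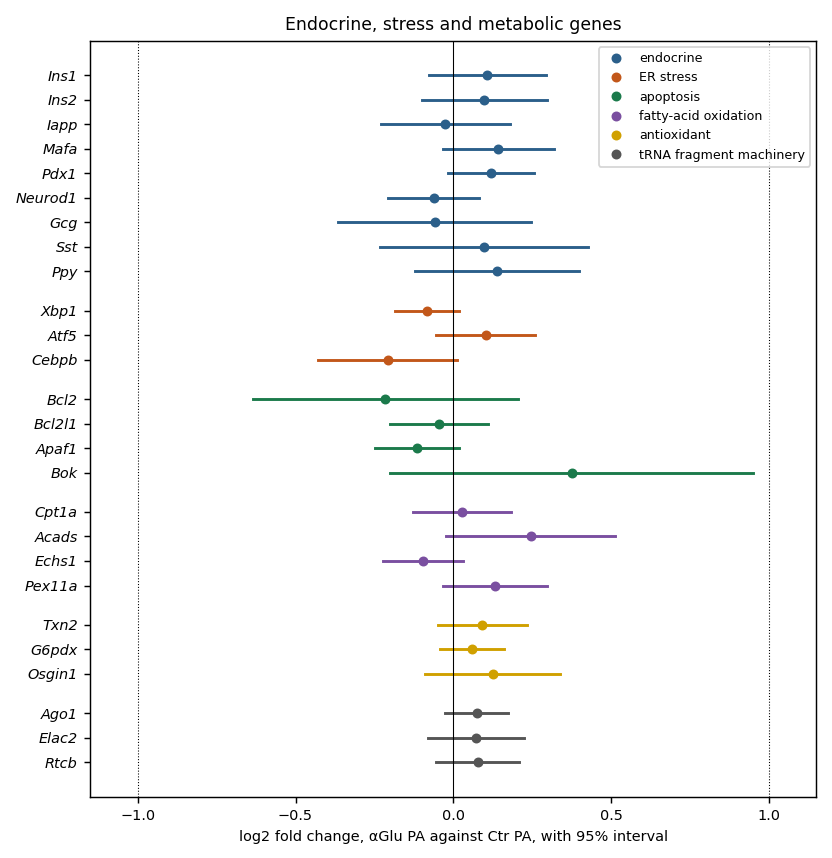
Log2 fold change (αGlu PA against Ctr PA, points) with 95% interval (bars) of the genes named on the y axis, which are part of the endocrine, ER stress, apoptosis, fatty-acid oxidation, antioxidant and tRNA fragment lists, with dotted lines at -1 and 1. Every interval drawn includes 0 and stays between the dotted lines, and the widest is that of Bok (-0.20 to 0.95).

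Transcripts of the tested genes were searched for sequence matches to the oligonucleotide and to the fragment. In the GENCODE vM21 transcripts of the tested genes, the longest run of bases complementary to the ASO was 13, found in 2 genes. A run of at least 12 was found in 32 genes, of which none was raised or lowered, and their median log2 fold change was -0.00518. A run of at least 11 was found in 165 genes, of which 1 was lowered (0.606%, beside 0.773% over all genes). The complement of bases 2 to 8 of the target, ACCAGGG, was present in the longest annotated 3' untranslated region of 1752 of 14494 genes. These had a median log2 fold change of -0.00397, with 1 raised (0.0571%) and 20 lowered (1.14%), and the 12742 genes without it a median of -0.00329, with 22 raised (0.173%) and 97 lowered (0.761%). Of the 1519 genes with 1 match 15 were lowered (0.988%), and of the 233 with 2 or more 5 were lowered (2.15%) and 0 raised, with a median of -0.00534. The regions with a match were longer (median 2420 bases) than those without (1232), and the part of length in these shares was not tested. A match of letters is a description and no evidence of binding.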

How the data were processed

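Dispersed mouse islet cells were profiled by stranded mRNA sequencing, and the QIAGEN RNA-seq Analysis Portal served for annotation and normalization. For every gene, the authors deposited counts of reads on exons beside RPKM, TPM and CPM values. The counts were used here, with empty cells read as 0. The submitters' processing notes name GRCm38. Neither aligner nor strand setting is given in the sources used here.

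Counts were analysed with R 4.3.3 and edgeR 4.0.16 (filterByExpr by group, TMM scaling, quasi-likelihood F-test, two-sided) in 1 fit of all 24 libraries with group and batch as terms. The 95% intervals were derived from the F statistic. The contrast of PA and BSA effects used the same fit, and that of the batches a group-by-batch fit. limma 3.58.1 (voom with sample weights) and DESeq2 1.42.0 were alternatives, beside upper-quartile scaling, other filters, no batch term, fewer libraries and the omission of each library. The main test was checked on simulated data with known changes. CPM here means TMM-scaled counts relative to library size. Depth limited the precision of genes with few counts.

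Gene lists were written from general knowledge, and both lists and the comparison were chosen with earlier results of these data known. The text names the 12 lowered and 10 raised genes of smallest p with at least 10 mean counts and the same direction in each batch, the genes the study names, up to 3 of each list and the islet hormones with Cpt1a. Other genes named were chosen after their values were seen. Gene positions and transcripts are from GENCODE vM21, where 15909 of the 15916 tested genes were found, and promoters from RefSeq. The line without a gene held 0 counts. Per the study's methods, replicates came from different mice and all groups of a replicate from the same animal. No label says which libraries share an animal, so libraries were not paired, and p-values measure the spread between libraries without regard to shared animals. A few genes that the naming rule or lists took are not reported here.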

Additional observations from a re-analysis of the deposited data

Results flagged for a closer look

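In 96 sets of 6 libraries (the called named genes and the summed defining markers, in Ctr PA and αGlu PA), 10 had 1 library set apart from the other 5 by a gap above 0.625 of the range. That limit flags about 1 set in 20 for independent, normally distributed values. Several of these genes had CPM near 0, were picked for their call and share libraries, so no excess over chance can be read from these 10 sets. In αGlu PA these were library S8 for C1qb (3.67 CPM), C1qc (3.94) and Fgf2 (1.47), and, as the lowest, for the summed glial markers (4.86), S4 for Cxcl14 (1.89), S12 for Gm43672 (0.932) and S24 for Mmp17 (1.01). In Ctr PA they were S19 for C1qc (0.993) and Cxcl14 (0.278) and S7 for Apol9b (0.109).

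Among genes with too few counts to be tested, 3 had at least 50 counts in αGlu PA and 0 in Ctr PA, and in each case 1 library held all of them. Cxcl9, an interferon-induced chemokine, had 88 counts in S8, and Gm42878 with 142 counts and Adamdec1 with 98 had theirs in S4. Another 3 had at least 50 counts in Ctr PA and 0 in αGlu PA, namely Gm12688 with 57 counts in 5 libraries, Gm42791 with 66 in 3 and Gm21994 with 71 in 2. No named gene differed between the PA and BSA effects or between the batches at an adjusted p below 0.05 with edgeR.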

How the results depend on the processing

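With 150 called genes as reported, upper-quartile scaling gave 148, DESeq2 158, limma-voom 144 and the fit without batch 139. No filter gave 576 called genes (246 raised, 330 lowered) and the strict filter 11 raised ones. The 12 PA libraries alone gave 92 called and 10 raised, batch 1 alone 82 called (41 raised, 41 lowered) and batch 2 alone 253 called (218 lowered). As reported, 0 genes passed an adjusted p of 0.05, with a fold threshold or without one. With no fold threshold the number was 30 with DESeq2, 3 without filter, 6 with the 12 PA libraries and 6 in batch 2 alone. Leaving out each library gave 141 to 200 called, 24 to 52 raised, 106 to 176 lowered, 0 to 3 past an adjusted p, and 13375 to 13708 intervals within 2-fold. The cause was not tested, except that fewer genes or libraries entered the filtered and subset fits.

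Of 3239 values of 99 named genes under these alternatives, 3150 kept their call and direction or were uncalled in both (41 of these with a change of sign), 73 lost the call, 15 gained it and 1 reversed, Cxcl14 at -0.55 in batch 2. The list counts under each alternative were added after seeing the data. Called glial genes numbered 13 to 16 without each library and 7 in batch 1 alone, beside 15. No paired analysis was run, because the labels give the groups no shared replicate numbers and do not say which libraries share an animal.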
